A study of Mus musculus with 8 samples.

Results

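Cytosolic ribosomal protein genes encode the protein part of the ribosome, the machine that translates mRNA in the cytoplasm. Their products are named for the small 40S subunit (Rps genes) or the large 60S subunit (Rpl genes), and each is needed in roughly equal amounts. In mammals most of their mRNAs start with a run of C and T bases, the terminal oligopyrimidine (TOP) motif, through which mTORC1 signalling and the RNA-binding protein LARP1 control how strongly they are translated. In liver, ribosome content follows feeding and protein supply, and hepatocytes make most of the plasma proteins.

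The members were chosen by symbol alone: Rpl or Rps followed by a number, together with Rpsa, Rplp0, Rplp1 and Rplp2, without the S6 kinase genes and without retrogene names. The rule found 79 of the 22946 rows of the gene count table, of which 32 were Rps and 47 Rpl genes. Rows that pass a filter on low counts were tested, and 76 of the 79 members were among these 12593 rows. Rpl10l, a retrogene copy of Rpl10 known for its role in the testis, had 0 counts in all 8 libraries, which allows at most 0.213 CPM (a gene's reads relative to the scaled library size) in the library with the fewest counts. Rpl39l had 1 count, in wild-type chow library 2, and Rpl3l, a copy known from muscle, had 0 to 3 counts per library. A further 5 rows join a ribosomal protein gene with a second gene and are given apart, among them those of Rpl13a and Rps27.

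Liver RNA was sequenced from C57 Black mice in 4 groups of 2 libraries each: wild-type on a high fat diet (HFD), wild-type on chow, mice labelled MLL4 het on HFD, and mice labelled MLL4 het on chow. Feeding began at 8 weeks of age and lasted 8 weeks. MLL4, also called KMT2D, is a histone methyltransferase of enhancers, and the study asked which diet responses of wild-type livers are altered in het livers. The labels give neither the sex of the mice nor the altered part of the gene, and do not say whether a library is 1 animal, so p-values measure the spread between libraries.

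Kmt2d, listed under its older symbol Mll2, had 62.7 and 75.3 CPM in het-labelled HFD libraries, against 63.3 and 64.6 CPM in wild-type HFD libraries (edgeR adjusted p = 0.760). On chow it had 59.9 and 72.02 CPM in het-labelled libraries, against 61.2 and 69.6 CPM in wild-type libraries. The het-labelled libraries did not have less of it, so their genotype rests on the label. Library totals lay between 14142884 and 18928676 counts. In a principal component analysis of all tested rows, het-labelled chow library 3 and het-labelled HFD library 8 lay at the ends of the third component, which held 14.2% of the variance. Results are therefore also given without both of these libraries.

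The sequences around the annotated start sites are shown for genes that fell and for a pair that did not, since a TOP motif is a pyrimidine run at the start of the mRNA. RefSeq (GRCm38.p6) start sites were at hand for 59 of the 79 members. Each line holds 40 bases before and 20 bases from the start, read along the gene's strand. Capitals mark the longest run of C and T within 10 bases of the start, or the first of several equally long runs. The first 6 genes fell on HFD in wild-type livers, and the last 2 did not.
Rpl22l1 (chr3:28805468-28805527, plus strand): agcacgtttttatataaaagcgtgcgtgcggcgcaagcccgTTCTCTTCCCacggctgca
Rps18 (chr17:33955646-33955705, minus strand): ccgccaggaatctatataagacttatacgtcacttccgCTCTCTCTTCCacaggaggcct
Rps24 (chr14:24490638-24490697, plus strand): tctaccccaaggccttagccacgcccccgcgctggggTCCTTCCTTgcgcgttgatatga
Rpl12 (chr2:32961672-32961731, plus strand): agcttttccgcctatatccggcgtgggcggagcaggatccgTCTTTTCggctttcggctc
Rps3 (chr7:99483690-99483749, minus strand): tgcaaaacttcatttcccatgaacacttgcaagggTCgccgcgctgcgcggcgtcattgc
Rps4x (chrX:102189372-102189431, minus strand): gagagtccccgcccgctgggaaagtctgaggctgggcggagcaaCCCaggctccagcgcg
Rps27l (chr9:66946046-66946105, plus strand): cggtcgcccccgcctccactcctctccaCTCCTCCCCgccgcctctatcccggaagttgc
Rpl7l1 (chr17:46782637-46782696, minus strand): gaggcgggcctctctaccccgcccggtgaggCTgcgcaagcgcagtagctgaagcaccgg

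The runs were 10 bases in Rpl22l1, 11 in Rps18, 9 in Rps24, 7 in Rpl12, 2 in Rps3 and 3 in Rps4x. They were 9 bases in Rps27l and 2 in Rpl7l1. With only 2 genes shown that did not fall, these runs cannot relate run length to the diet difference. The marked runs of Rps3, Rps27l and Rpl7l1 lie wholly before the annotated start, outside the mRNA. Rps3 and Rpl7l1 also hold a run of 2 bases after the start, equal to the marked one. A run of at least 5 bases lay near the start of 41 of 59 members, or 69.5%, against 44.95% of the 27025 genes with an entry. A run of at least 8 bases was found in 24 members, or 40.7%, against 13.5% of genes. These counts take any run that reaches within 10 bases of the start, also one wholly before it, so they are not rates of TOP starts. In the 250 bases before the start, searched on both strands for strings that do not contain each other, CCGGAAG (the core bound by ETS factors) occurred in 19 members, or 32.2%, against 7.05% of genes. ATGGCG (the core bound by YY1) occurred in 5 members, or 8.48%, against 5.77%, and TATAAA in 3 members, or 5.09%, against 12.97% of genes. A match describes the letters of these windows and does not show a bound factor.

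Together the 79 members took 1.03% and 1.06% of counts in wild-type HFD libraries, against 1.34% and 1.29% in wild-type chow libraries. In het-labelled libraries they took 1.10% and 1.22% on HFD, against 1.16% and 1.32% on chow. The 95% Wilson intervals of these shares cover counting error only and were at most 0.0118 percentage points wide. On the scaled level, the summed members averaged 10492 ± 527 CPM in wild-type HFD and 13026 ± 31.8 CPM in wild-type chow livers (SD, n = 2 each), which is 19.5% lower (-19.5%) on HFD. In het-labelled livers the sum averaged 11682 ± 763 CPM on HFD and 12343 ± 962 CPM on chow (SD, n = 2 each), a difference of -5.35% that is smaller than the SD of either group. With 2 libraries against 2, an exact permutation test cannot go below p = 0.333, and no p is given for these sums. The wild-type diet groups did not overlap, and the het-labelled ones did.

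**Figure D1:**
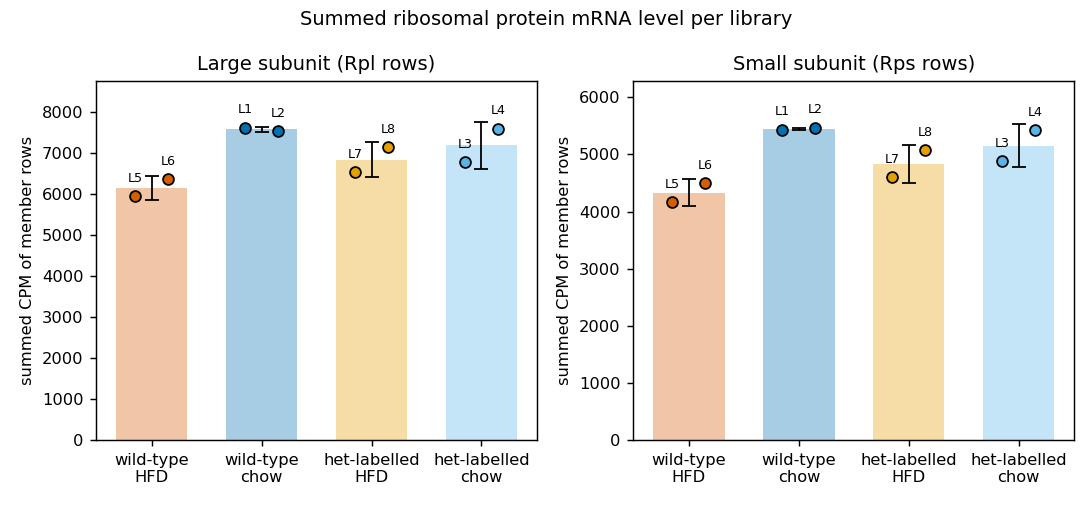
Summed CPM of the Rpl rows (left) and Rps rows (right) in each library; bars are means of 2 libraries, error bars SD, points libraries with their number. In both panels the 2 wild-type HFD libraries, at 5956 and 6365 CPM for Rpl and 4163 and 4499 CPM for Rps genes, lie below the 6 other libraries.

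Levels of different genes are compared per kilobase of coding sequence, over all 8 libraries, for the 75 tested members with a coding length. The median was 290.0 CPM per kilobase, with a range of 56.7 to 2422. Rpl41, which encodes a very short basic peptide of the 60S subunit, was highest at 2422 CPM per kilobase, and since its coding sequence has only 75 bases the untranslated part weighs heavily in that figure. Rplp1, a protein of the 60S stalk, followed at 695, Rpl10, which docks near the tRNA sites, at 664 and Rps2, of the 40S mRNA entry channel, at 661 CPM per kilobase. At the low end stood 2 paralogues, Rpl22l1 at 56.7 and Rpl7l1 at 75.99 CPM per kilobase.

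Many ribosomal protein genes have processed pseudogenes, so reads may be lost or shared between copies, and how the counting treated them was not given. In GENCODE M21 coding sequences, 63 of the 78 members with a coding length shared more than 50% of their 50-base windows with another gene, and 3 shared none. The wild-type diet differences had a median log2 value of -0.32 in the 63 tested members above that limit and -0.30 in the 12 at or below it. Among tested members, Rps3 shared 8.09% and Rpl8 8.73% of windows, so the counts of these 2 genes have little doubt of this kind. The doubt stays for the other genes described below as falling on HFD in wild-type livers. Rpl12 shared 100%, Rps4x 90.1%, Rps18 87.7%, Rpl22l1 84.2% and Rps24 78.3% of windows.

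In wild-type livers HFD was compared with chow, the contrast the study's design puts first. Ribosomal protein mRNAs were lower on HFD almost as a body: the log2 difference was below 0 in 75 of 76 members, against 46.1% of all tested rows, and above 0 in 1, against 53.9% of rows. The median was -0.31, against 0.02 over all rows. The quartiles were -0.38 and -0.27, and the range ran from -0.80 to 0.14. Both subunits lay on the same side, with a median of -0.35 in 32 Rps and -0.30 in 44 Rpl genes. The 2 HFD libraries lay below both chow libraries in 74 of 76 members, against 25.2% of all rows, and above both in 1, against 30.6%. At an adjusted p under 0.05 in edgeR's quasi-likelihood test, 7 members fell, against 2.22% of all rows called lower, and 0 rose, against 2.37% called higher. At an unadjusted p under 0.05, 69 members were lower, against 8.77% of rows, and 0 were higher, against 10.3%. DESeq2 called 15 members lower, against 2.87% of all rows, and 0 higher.

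Of the members that fell, 6 are described here: Rpl22l1, Rpl12, Rps18, Rps24, Rps3 and Rps4x. Rpl22l1 encodes a paralogue of the 60S protein Rpl22, and in mouse cells Rpl22 protein is known to repress its mRNA. It had 15.9 and 16.2 CPM in wild-type HFD libraries, against 25.9 and 29.7 CPM in wild-type chow libraries. Its log2 change was -0.80 ± 0.13 (SE), with an edgeR adjusted p of 0.0119. The HFD libraries agreed closely with each other and lay well below both chow libraries. Rpl12 encodes a protein at the base of the stalk that recruits elongation factors. Its level was 89.3 and 112 CPM in HFD libraries, against 154 and 153 CPM in chow libraries, with a log2 change of -0.61 ± 0.14 and an edgeR adjusted p of 0.0435. Here the HFD libraries were spread wider than the chow libraries, yet the groups did not overlap.

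The other 4 of these encode 40S proteins. Rps18, of the subunit head, had 156 and 162 CPM on HFD, against 219 and 215 CPM on chow. Its log2 change was -0.45 ± 0.09 (edgeR adjusted p = 0.0320). The libraries of each group lay close together and the groups were far apart. Rps24, which in people is mutated in Diamond-Blackfan anaemia, had 116 and 117 CPM on HFD, against 153 and 163 CPM on chow (log2 -0.44 ± 0.10, edgeR adjusted p = 0.0416). Rps3 lines the mRNA entry channel and also takes part in ribosome quality control. It had 158 and 168 CPM on HFD, against 212 and 209 CPM on chow (log2 -0.37 ± 0.08, edgeR adjusted p = 0.0362). Rps4x, the X-linked copy of the RPS4 family, had 182 and 199 CPM on HFD, against 247 and 241 CPM on chow (log2 -0.36 ± 0.08, edgeR adjusted p = 0.0428). The groups were apart in all 3 genes.

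These 7 calls stood near the threshold. Leaving out any 1 of wild-type chow libraries 1 or 2 or wild-type HFD libraries 5 or 6 ended all 7, with no member called, and leaving out het-labelled HFD library 7 or 8 ended that of Rps4x. Over the 17 alternatives the adjusted p ranged up to 0.0963 for Rpl22l1 and up to 0.257 for Rps4x. In the other direction, 27 members were called lower without het-labelled chow library 3 (3.48% of all rows), 34 without het-labelled chow library 4 (3.77%), 44 without libraries 3 and 8 together (5.11%), and 53 when only the 4 wild-type libraries were fitted (5.97%). Calls over all rows thus rose in these settings too, and they fell where any 1 wild-type library was left out. The median log2 difference moved little, between -0.38 and -0.30 when 1 library was left out.

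**Figure D2:**
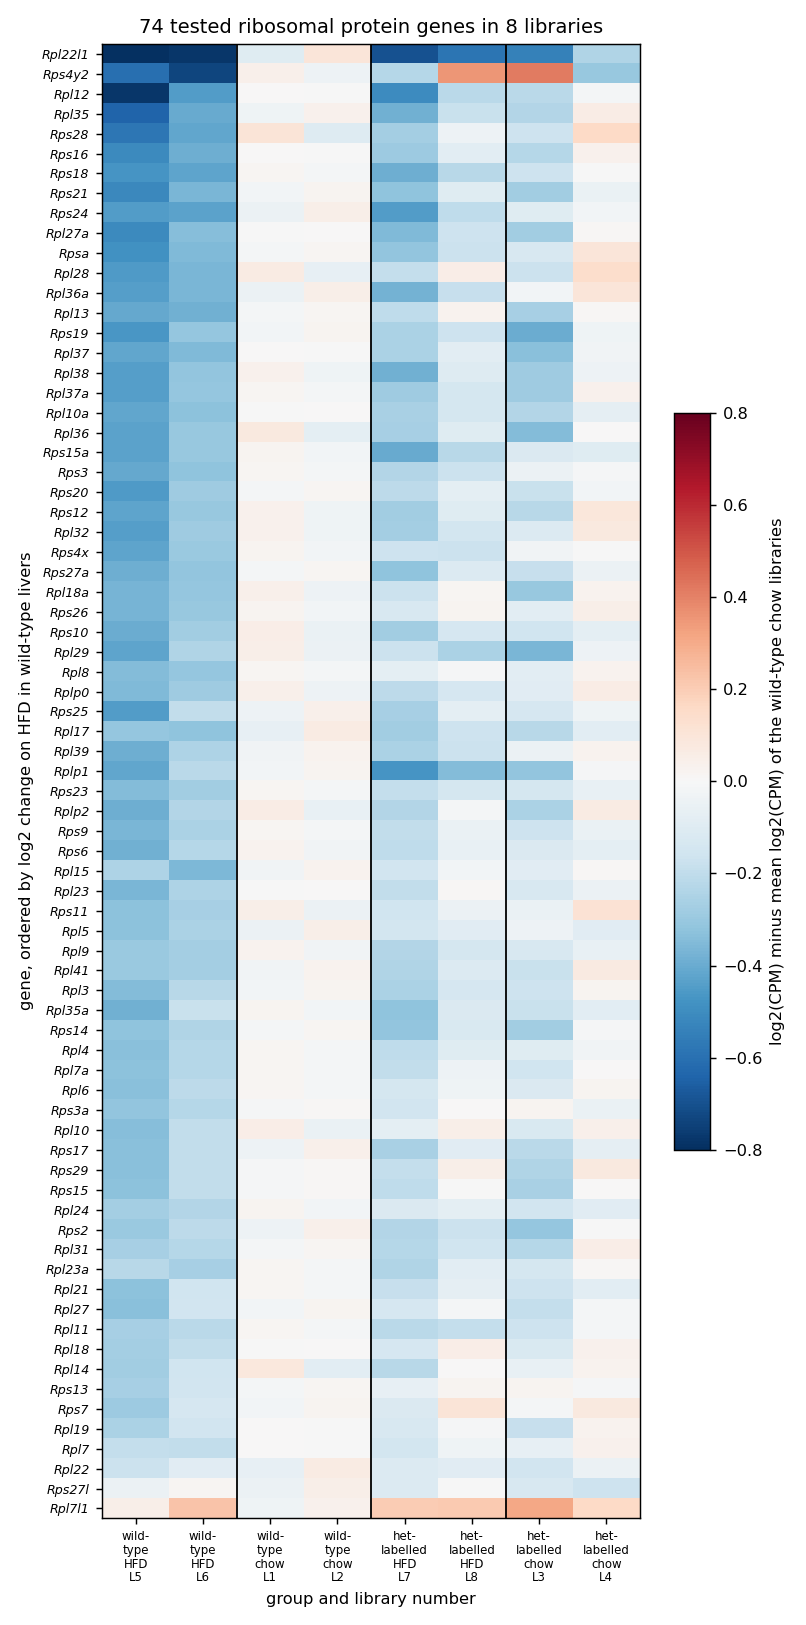
Each row is 1 of 74 tested members, ordered by its log2 change on HFD in wild-type livers, and each column 1 library; colour is log2(CPM) minus the mean log2(CPM) of the wild-type chow libraries. Wild-type HFD libraries 5 and 6 are blue down nearly the whole column, and Rps27l and Rpl7l1 at the bottom are the exceptions.

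By role, the members lay close together in the wild-type diet comparison. The stalk, which binds the elongation factors, had Rpl12 among the genes that fell and 3 members that missed the threshold. Rplp0, its anchor, had 271 and 285 CPM on HFD, against 357 and 338 CPM on chow (log2 -0.32, edgeR adjusted p = 0.0804). Rplp1 and Rplp2, the acidic proteins that dangle from it, each had a log2 difference of -0.31 (edgeR adjusted p of 0.193 and 0.225). Rpl5 and Rpl11, which join the 5S rRNA and bind MDM2 when ribosome assembly is disturbed, had log2 differences of -0.29 and -0.24 (edgeR adjusted p of 0.0821 and 0.158). All 7 genes listed for the mRNA channel and decoding centre of the 40S subunit were below 0, with a median log2 of -0.31, and Rps3 alone of them passed the test. Rps23, at the decoding centre, had 108 and 113 CPM on HFD, against 139 and 135 CPM on chow (log2 -0.31, edgeR adjusted p = 0.0621). Rps2 had 523 and 558 CPM on HFD, against 626 and 662 CPM on chow (log2 -0.25, edgeR adjusted p = 0.256). The groups were apart in both genes, and Rps2 was the member of this group with the smallest difference.

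The 7 tested genes of the peptide exit tunnel were also all below 0, with a median log2 of -0.28 and 0 called in either direction by edgeR. Rpl4, whose loop reaches into the tunnel, had 354 and 381 CPM on HFD, against 449 and 441 CPM on chow (log2 -0.28, edgeR adjusted p = 0.110). Rpl35, at the tunnel's mouth, had 50.6 and 59.8 CPM on HFD, against 77.1 and 80.7 CPM on chow (log2 -0.52, edgeR adjusted p = 0.0596). The HFD and chow libraries of both genes were apart. Rps6, the 40S protein phosphorylated by S6 kinases, had 232 and 258 CPM on HFD, against 308 and 298 CPM on chow (log2 -0.31, edgeR adjusted p = 0.103). Rps27a, made as a fusion with ubiquitin, had a log2 difference of -0.35 (edgeR adjusted p = 0.0801), and Rpsa, also known as the laminin receptor, of -0.42 (edgeR adjusted p = 0.0581). Of the 20 genes listed for human Diamond-Blackfan anaemia, 18 were tested, all 18 were below 0 and 1, Rps24, passed the test.

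The paralogues varied among themselves. Rps27l, a copy of Rps27 that p53 induces in human cells, had 93.8 and 98.1 CPM in wild-type HFD libraries, against 94.0 and 100.1 CPM in wild-type chow libraries. Its log2 difference was -0.02 ± 0.08 (edgeR adjusted p = 0.941), the groups overlapped, and the sign turned, to 0.03, without library 2. The joined row of Rps27, its partner, had a log2 difference of -0.40 (edgeR adjusted p = 0.0753). Rpl7l1, a copy of Rpl7 that acts in assembly of the 60S subunit, had 52.3 and 59.2 CPM on HFD, against 49.4 and 51.8 CPM on chow. It was the only member above 0, with a log2 difference of 0.14 ± 0.10 (edgeR adjusted p = 0.490), while Rpl7 stood at -0.19 (edgeR adjusted p = 0.240). Rpl22, the partner of Rpl22l1, had 76.4 and 80.9 CPM on HFD, against 82.2 and 89.9 CPM on chow (log2 -0.13, edgeR adjusted p = 0.468). Rps4y2, an older symbol of Rps4l, was the lowest tested member at 7.90 and 7.21 CPM on HFD, against 12.3 and 11.6 CPM on chow (log2 -0.67 ± 0.25, edgeR adjusted p = 0.194).

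**Figure D3:**
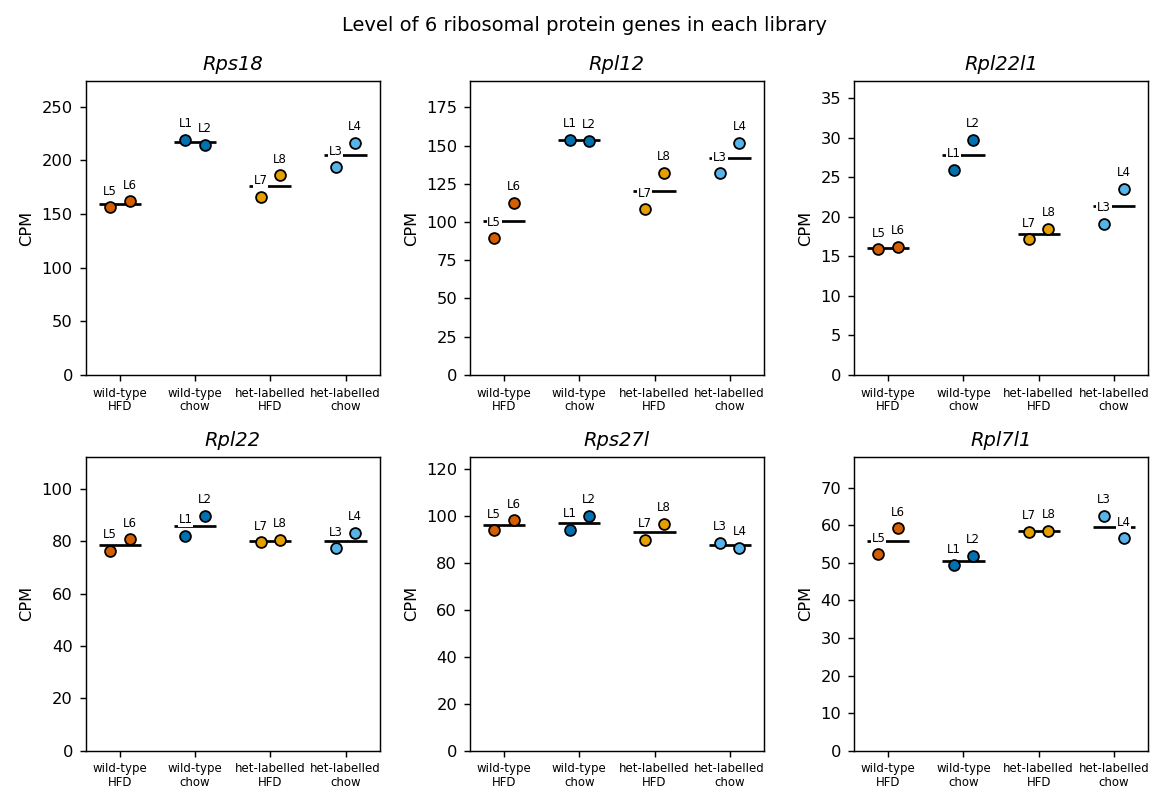
CPM of 6 members in each library (points, with library number) and the mean of each group of 2 (lines); each vertical axis starts at 0. Rps18 and Rpl22l1 are lowest in the 2 wild-type HFD libraries, Rpl12 overlaps there with het-labelled HFD library 7, and Rps27l and Rpl7l1 show no drop in wild-type HFD libraries.

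The 5 joined rows were all lower on HFD than on chow in wild-type livers, at log2 values between -0.46 and -0.26, and none passed the test (edgeR adjusted p between 0.0546 and 0.272). The row of Rpl13a, a 60S protein with a known part in interferon-controlled translation, was lowest, with 162 and 191 CPM on HFD, against 238 and 248 CPM on chow. It also holds a small nucleolar RNA and a microRNA of the same locus, so its reads cannot be divided.

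The share of a member in the summed member counts varied most over the 4 groups in 4 paralogues and Rpl12. Rpl22l1 took 0.153% of the pool in wild-type HFD, 0.214% in wild-type chow, 0.153% in het-labelled HFD and 0.172% in het-labelled chow livers. Rpl7l1 took 0.531% in wild-type HFD, 0.388% in wild-type chow, 0.501% in het-labelled HFD and 0.485% in het-labelled chow livers. Rps4y2 and Rps27l were the other paralogues, and Rpl12 stood at 0.959% in wild-type HFD and 1.18% in wild-type chow livers.

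Members also moved together between libraries of 1 group, which bears on how far their differences are independent. In het-labelled HFD libraries, 74 of 76 members were higher in library 8 than in library 7, against 47.9% of all tested rows, with a median log2 difference of 0.14. In het-labelled chow libraries, 70 of 76 were higher in library 4 than in library 3, against 49.8% of rows, with a median of 0.15. In wild-type HFD libraries, 71 of 76 were higher in library 6 than in library 5, against 49.5% of rows, with a median of 0.11. Only the wild-type chow pair lacked such a shift, with 35 of 76 members higher in library 2 than in library 1, against 51.8% of rows. The members are thus not independent readings of the diet, and a shift of 0.11 to 0.15 arose between libraries of 1 group. The wild-type diet difference of -0.31 was larger in size than these shifts, which come from 1 pair per group and were not tested against it. Of the other comparisons of 2 groups, given below, the median was -0.07 for diet in het-labelled livers and -0.09 for genotype on chow. Both are smaller in size than these shifts. For genotype on HFD the median was 0.16, about their size.

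In het-labelled livers the same diet comparison gave smaller differences. The log2 difference was below 0 in 65 of 76 members, against 51.2% of all rows, and above 0 in 11, against 48.8%, with a median of -0.07, against -0.01 over all rows. The HFD libraries lay below both chow libraries in 16 members, or 21.1%, against 22.4% of rows, which is near the background. No member passed the test in edgeR, against 1.48% of rows called lower and 1.53% called higher, and DESeq2 called none. At an unadjusted p under 0.05, 4 were lower, against 9.13% of rows, and 0 were higher, against 9.04%. The 4 were Rpl36a, Rps24, Rps18 and Rpl39. Rpl36a, a 60S protein near the tRNA exit site, had 56.2 and 64.5 CPM in het-labelled HFD libraries, against 72.1 and 78.3 CPM in het-labelled chow libraries (log2 -0.32 ± 0.10, edgeR adjusted p = 0.131). Rps18 had 166 and 186 CPM on HFD, against 194 and 217 CPM on chow (log2 -0.22, edgeR adjusted p = 0.252). In both genes the groups were apart.

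Single members differed in size of response in het-labelled livers. Rpl22l1 had 17.2 and 18.5 CPM on HFD, against 19.1 and 23.5 CPM on chow (log2 -0.26 ± 0.13, edgeR adjusted p = 0.336). Rpl8, which sits in the 60S core near the peptidyl transferase centre, had 193 and 202 CPM on HFD, against 192 and 207 CPM on chow (log2 -0.01, edgeR adjusted p = 0.955), and the sign turned without library 4 (0.04) or library 7 (0.02). Rps27l was the only member whose HFD libraries both lay above the chow libraries, against 22.3% of rows, at 89.8 and 96.7 CPM on HFD, against 88.6 and 86.4 CPM on chow (log2 0.09, edgeR adjusted p = 0.632). The result turned on which libraries were kept: the median log2 difference was 0.01 without library 4 or without library 7, -0.14 without library 3 or without library 8, and -0.21 without libraries 3 and 8 together, when 73 members were below 0.

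**Figure D4:**
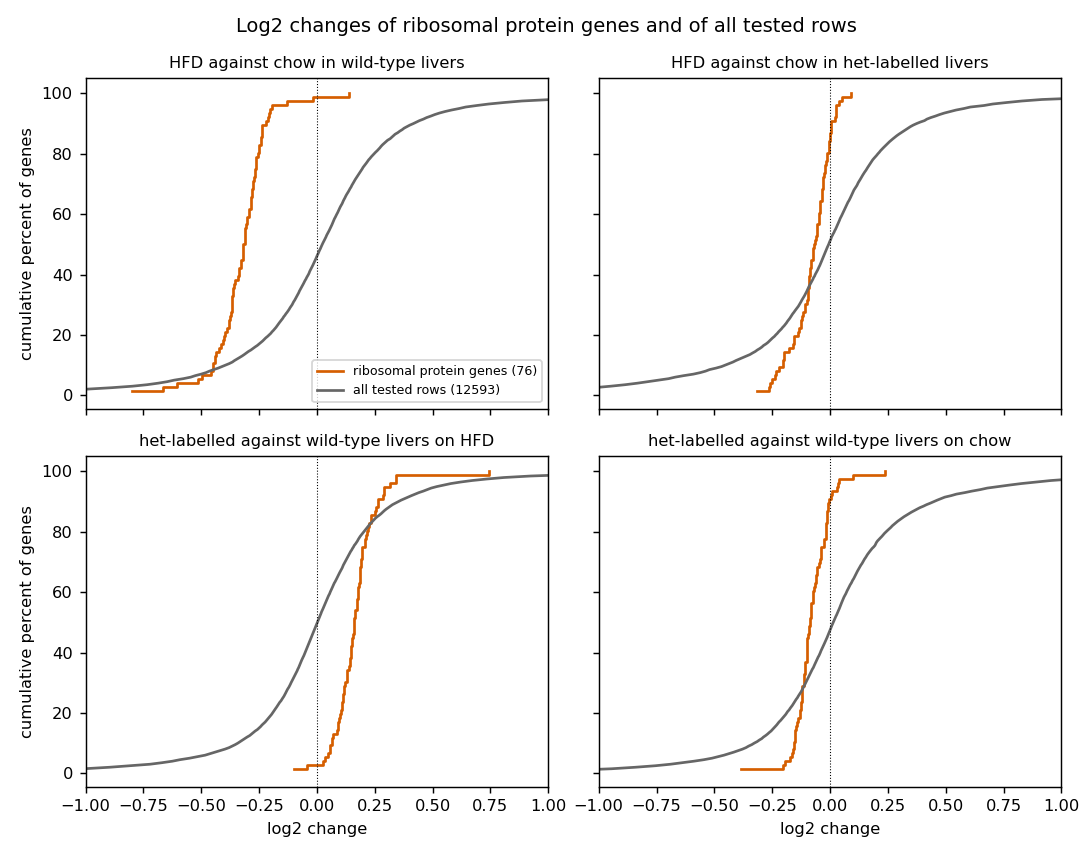
Cumulative percent of genes against log2 change for the 76 members (orange steps) and all 12593 tested rows (grey), 1 panel per comparison; the dotted line marks 0. Over most of their range the members lie left of all rows on HFD in wild-type livers, with medians of -0.31 and 0.02, and right of them in het-labelled against wild-type livers on HFD, with medians of 0.16 and 0.00.

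Genotypes were compared on each diet. These comparisons share their libraries with the diet comparisons, so they are not independent evidence. On HFD, 74 of 76 members were higher in het-labelled than in wild-type livers, against 50.4% of rows, and 2 were lower, against 49.6%, with a median log2 difference of 0.16, against 0.00 over all rows. The het-labelled libraries both lay above the wild-type libraries in 51 members, against 22.8% of rows. A shift of about this size also lay between the 2 het-labelled HFD libraries. There, 74 of 76 members were higher in library 8 than in library 7, with a median of 0.14. None passed the test in edgeR or DESeq2, where edgeR called 0.0953% of rows higher and 0.349% lower. At an unadjusted p under 0.05, 13 members were higher, against 5.85% of rows, and 0 were lower, against 7.93%. Rpl8 had the smallest p, with 193 and 202 CPM in het-labelled HFD libraries, against 159.7 and 164 CPM in wild-type HFD libraries (log2 0.29 ± 0.08, edgeR adjusted p = 0.175). Rps26, which contacts mRNA at the exit channel, had 80.3 and 89.1 CPM in het-labelled, against 67.6 and 71.0 CPM in wild-type HFD libraries (log2 0.29, edgeR adjusted p = 0.213). The 2 lower members were Rplp1, at -0.10 (edgeR adjusted p = 0.777) and at 0.01 without library 6, and Rps27l, at -0.04 (edgeR adjusted p = 0.872). Without libraries 3 and 8 the median was 0.10 and 8 members were below 0.

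On chow, 69 of 76 members were lower in het-labelled than in wild-type livers, against 47.5% of rows, with a median log2 difference of -0.09, against 0.01 over all rows. The het-labelled libraries both lay below the wild-type ones in 25 members, against 21.9% of rows. No member passed the test in edgeR or DESeq2, where edgeR called 0.191% of rows lower and 0.326% higher, and at an unadjusted p under 0.05 there was 1 member lower, against 7.24% of rows, and 1 higher, against 8.1%. The lower one was Rpl22l1, with 19.1 and 23.5 CPM in het-labelled chow libraries, against 25.9 and 29.7 CPM in wild-type chow libraries (log2 -0.38 ± 0.13, edgeR adjusted p = 0.206). The higher one was Rpl7l1, with 62.6 and 56.5 CPM in het-labelled, against 49.4 and 51.8 CPM in wild-type chow libraries (log2 0.24 ± 0.10, edgeR adjusted p = 0.294). This comparison rested on het-labelled chow library 3: without it the median log2 difference was 0.00 and 42 members were below 0.

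The interaction term asks whether the diet response differs between genotypes, the question in the study's design text. It was above 0 in 75 of 76 members, against 47.1% of rows, with a median log2 of 0.24, against -0.02 over all rows, so the HFD difference was less negative in het-labelled livers. No member passed the test in edgeR or DESeq2, and edgeR called 0 rows in all, while DESeq2 called 23. At an unadjusted p under 0.05, 12 members were above 0, against 3.03% of rows, and 0 were below, against 4.11%. Rpl22l1 had an interaction term of 0.54 ± 0.18, with an edgeR adjusted p of 0.628, the smallest over the members. The median was 0.08 without libraries 3 and 8. A difference between genotypes in the diet response was not called for any member.

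Other genes of the translation apparatus were counted from fixed lists, chosen with earlier results known. Other genes listed for TOP mRNAs and their partners in translation numbered 21. Of these, 18 were below 0 on HFD in wild-type livers, against 46.1% of all rows. The median log2 over the 21 was -0.12, and 1 of them was called lower, against 2.22% of all rows. That 1 was Rack1, listed under its older symbol Gnb2l1, which encodes a signalling scaffold bound to the 40S head. It had 189 and 200.1 CPM in wild-type HFD libraries, against 253 and 251 CPM in wild-type chow libraries (log2 -0.37 ± 0.08, edgeR adjusted p = 0.0412), and this call too was lost without any 1 of libraries 1, 2, 5 or 6. Fau, which encodes a ribosomal protein as a ubiquitin-like fusion under a name outside the rule, had a log2 difference of -0.26 (edgeR adjusted p = 0.297). Eef1a1, the factor that delivers tRNAs, had 3673 and 3816 CPM on HFD, against 4255 and 4270 CPM on chow (log2 -0.19, edgeR adjusted p = 0.323). Fau and Eef1a1 lay on the same side as the members, nearer to 0 than the members' median.

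The remaining lists had medians nearer to that of all rows (0.02) than the members' median in wild-type livers on HFD. The median log2 difference was 0.08 in 28 translation initiation factors, 0.04 in 55 ribosome biogenesis genes, 0.00 in 37 genes of the mTORC1 pathway, -0.04 in 17 transcription factors of ribosomal protein genes and 0.11 in 74 mitochondrial ribosomal proteins. Below 0 were 7 of the initiation factors, 19 of the biogenesis genes and 17 of the mTORC1 genes, against 46.1% of all rows. So were 10 of the transcription factors and 19 of the mitochondrial ribosomal proteins. No gene of these lists passed the test in edgeR, against 2.37% of rows called higher and 2.22% called lower. At an unadjusted p under 0.05, 10.3% of all rows were higher and 8.77% lower. At that limit 2 initiation factors were higher and 0 lower, and 3 biogenesis genes were higher and 1 lower. Of the mitochondrial ribosomal protein genes, 4 were higher and 2 lower. The mTORC1 list had 2 higher and 3 lower, and the transcription factors 1 higher and 0 lower. Larp1, the TOP mRNA binding protein, had 135 and 160.0 CPM on HFD, against 175 and 168 CPM on chow (log2 -0.22, edgeR adjusted p = 0.328).

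**Figure D5:**
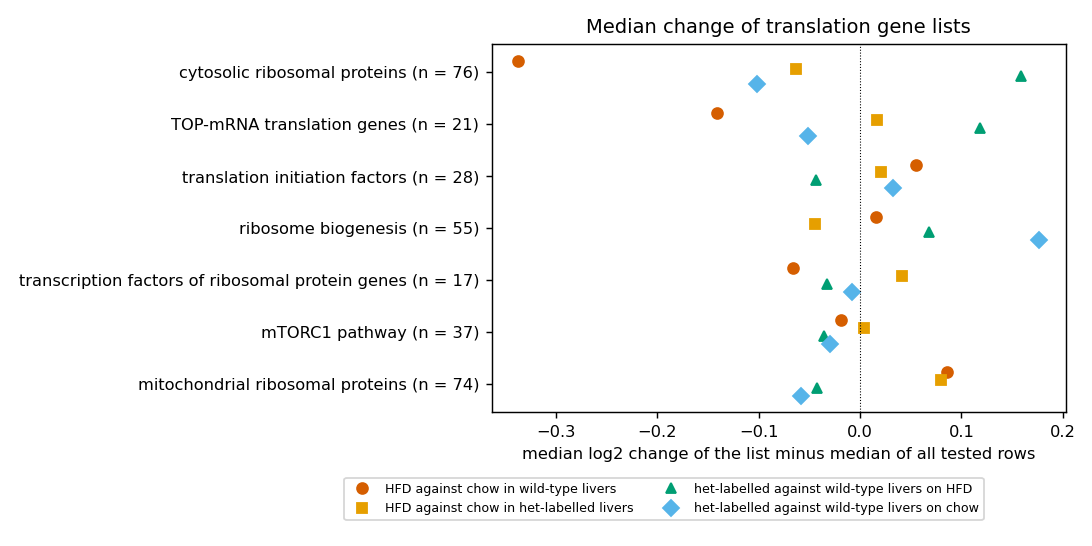
Median log2 change of each of 7 translation gene lists minus the median of all tested rows, with the number of tested genes, for 4 comparisons (symbols). Of the lists drawn, the cytosolic ribosomal protein genes stand farthest from 0 on HFD in wild-type livers. In that comparison the mitochondrial ribosomal proteins, initiation factors and ribosome biogenesis genes lie on the other side of 0.

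Markers of some of the cell types a liver sample holds moved with these comparisons. Hepatocyte rows, which mark the labelled tissue, summed to 85896 and 87387 CPM in wild-type HFD libraries, against 107663 and 100213 CPM in wild-type chow libraries, and 4 of 11 fell (Fgb, Ahsg, Cps1 and the joined row of Ass1). Red blood cell rows summed to 1142 and 887 CPM in wild-type HFD, against 408 and 316 CPM in wild-type chow libraries, and 3 of 4 tested rows, all of haemoglobin genes, rose. In het-labelled livers the hepatocyte rows summed to 88002 and 85552 CPM on HFD, against 100470 and 98881 CPM on chow, and the red blood cell rows to 467 and 499 CPM, against 315 and 342 CPM, with 0 called of either list. Kupffer cell rows summed to 294 and 184 CPM in het-labelled HFD libraries, against 527 and 434 CPM in het-labelled chow libraries. In wild-type libraries they summed to 179 and 183 CPM on HFD, against 196 and 178 CPM on chow. Of 11 Kupffer cell rows, 8 fell on HFD in het-labelled livers and 6 were higher in het-labelled than in wild-type livers on chow. Of 4 tested red blood cell rows, 1 was below 0 in that genotype comparison on chow and was called lower, with a median log2 difference of 0.10 over the 4. On HFD, all 4 tested red blood cell rows were lower in het-labelled than in wild-type livers, 2 of them past the test, with a median log2 difference of -1.12. All 11 Kupffer cell rows were above 0 in that comparison, 0 of them past the test in edgeR and 3 at an unadjusted p under 0.05, with a median log2 difference of 0.48. Of 8 neutrophil rows, Mpo and Camp were at 0 in all libraries. Among tested lymphocyte (4), neutrophil (2), sinusoidal endothelial (9), stellate cell (9) and cholangiocyte (4) rows, none was called in any comparison. Over all rows, 2.22% were called lower and 2.37% higher on HFD in wild-type livers, and 1.48% and 1.53% in het-labelled livers. By genotype, 0.326% of all rows were called higher and 0.191% lower on chow, and 0.349% were called lower on HFD. The part of the marker shifts in the ribosomal protein differences was not tested. In bulk RNA, fewer cells of a type and less RNA per cell cannot be told apart.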

How the data were processed

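Gene counts of 8 mouse liver RNA-seq libraries were analysed. The authors deposited a table of whole-number read counts per gene symbol, not normalized, per the file headers and values. The tools listed, per the submitters' processing notes, are CASAVA, TopHat2, HTSeq and DESeq, with the build mm9. Settings, strand handling and multiply matching reads are not given in the sources used here. Groups and library numbers came from the titles. Nothing in the labels gives a batch.

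Rows passing filterByExpr were scaled by TMM and fitted with edgeR 4.0.16 (R 4.3.3) as 4 group means over all 8 libraries. The quasi-likelihood tests were 2-sided, p-values were adjusted by the Benjamini-Hochberg method over 12593 rows, and a row was called at an adjusted p under 0.05. SE is that of the log2 change, derived as its absolute value divided by the square root of the quasi-likelihood F statistic. DESeq2 1.42.0, other scalings, other filters and left-out libraries were alternatives. Levels are CPM on TMM-scaled library sizes, and coding lengths and windows came from GENCODE M21 by symbol, with no coordinates carried between builds.

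The members were taken by symbol, and this rule and the lists were chosen with earlier results of these data known. Named by rule were the called members, those of set role groups with the smallest p or highest level, the 5 highest and 5 lowest by level, the 5 of most variable pool share, and up to 4 called genes, else up to 2, of each other list. Rpl36a, Rps6, Rpl8, Rps26, Rps23, Rpl13a and Fau were also named, some after their values were seen. A few genes that the rule names are counted but not reported here. Chi-square tests found more than counting noise between the 2 libraries of every group, so no pair was merged.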

Additional observations from a re-analysis of the deposited data

How the results depend on the processing

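No paired analysis was possible because the library numbers run from 1 to 8 with no number shared between groups. The median log2 difference of the members kept its sign on HFD in wild-type livers under each alternative run, between -0.38 and -0.30 with 1 library left out. With 1 library left out it ranged from -0.14 to 0.01 (diet, het-labelled), 0.10 to 0.23 (genotype on HFD), -0.18 to -0.00 (genotype on chow) and 0.17 to 0.34 (interaction). Without libraries 3 and 8 together, an alternative chosen after seeing the data, the het-labelled diet median was -0.21 and the interaction median 0.0803. Members called lower on HFD in wild-type livers numbered 7, and 12 with upper-quartile factors, 17 without a filter, 14 at a mean of at least 1 CPM, 15 in DESeq2, 53 with only the 4 libraries compared, 44 without libraries 3 and 8, and 0 to 34 with 1 library left out. Counts over all rows, with both directions together, moved as follows. Wild-type diet: 578, and 1351 with 4 libraries, 1319 without libraries 3 and 8, and 98 to 896 with 1 left out. Het-labelled diet: 380, and 680 without a filter, 105 with 4 libraries, and 144 to 293. Genotype on HFD: 56, and 92 without scaling, 258 without a filter, 229 in DESeq2, 26 with 4 libraries, and 12 to 177. Genotype on chow: 65, and 314 without a filter, 219 in DESeq2, and 1 to 269. Interaction: 0, and 8 without a filter, 23 in DESeq2, 4 without libraries 3 and 8, and 0 to 14. A fit of only the 4 libraries compared does not exist for the interaction. Where a left-out library left 1 in its group, that library was assumed to vary like the others. The cause of these shifts was not tested.

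The members' share of counts without the major urinary protein row was 1.14% and 1.20% (wild-type HFD), 1.44% and 1.44% (wild-type chow), 1.27% and 1.40% (het-labelled HFD) and 1.34% and 1.499% (het-labelled chow). With the joined rows added it was 1.08% and 1.11% (wild-type HFD), 1.41% and 1.37% (wild-type chow), 1.16% and 1.28% (het-labelled HFD) and 1.23% and 1.40% (het-labelled chow). Of 982 values of named genes under alternatives, 875 kept their sign and side of the threshold, 30 lost a call, 73 gained one and 4 turned sign, each between values near 0: Rps27l on HFD in wild-type livers (-0.0854 to 0.0290 with 1 library left out), Rplp1 by genotype on HFD (-0.19 to 0.00639), and on HFD in het-labelled livers Rpl8 at 2 settings (-0.0673 to 0.0417 over all). Depth limits the untested paralogues Rpl10l, Rpl39l and Rpl3l, for which 0 to 3 counts per library allow no comparison.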
